A study of Mus musculus with 12 samples.

Results

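A set of 9 genes that govern how a cell senses, takes in, moves and exports sterols was followed in granulocyte-monocyte progenitors that lack tafazzin. They were the sterol-regulated transcription factor genes Srebf1 and Srebf2, the partner genes Scap, Insig1 and Insig2, the sterol carrier Stard4, the receptor-degrading ligase Mylip, and the exporters Abca1 and Abcg1. The members were given by symbol, and their rows were found in the deposited count table through their Ensembl identifiers. All 9 members were found among the 37583 gene identifiers, and all 9 passed the filter on low counts that left 11819 genes for testing.

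The study asked how loss of tafazzin (gene symbol Taz), the acyltransferase that remodels the mitochondrial phospholipid cardiolipin, alters gene expression in these progenitors. RNA was sequenced from 12 clones, each grown from a single cell: 6 wildtype clones (1A to 1C and 2D to 2F) and 6 Taz knockout clones (3G to 3I and 4J to 4L). Both genotypes were C57BL/6, came from fetal liver at embryonic day 15.5 and carried retroviral ER-Hoxb8, a fusion that blocks maturation while estradiol is present. All clones grew in RPMI with fetal bovine serum, 0.5 µM estradiol and stem cell factor from conditioned medium, equivalent to about 50 ng/ml. How the Taz allele was made is not given in the sources used here. The digit in a clone name (1 or 2 in wildtype, 3 or 4 in knockout) is shared by 3 clones and its meaning is not stated. Whether clones that share a digit come from one embryo or parent line is therefore unknown, and p-values measure only the spread between these clones.

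SREBP proteins, the products of Srebf1 and Srebf2, are made as precursors in the membrane of the endoplasmic reticulum. When sterols are low, SCAP escorts them to the Golgi, where proteases free the part that enters the nucleus; when sterols are plentiful, INSIG proteins hold the complex back. SREBP-2 mainly drives genes of cholesterol synthesis and uptake, and SREBP-1 mainly those of fatty acid synthesis. Oxysterols act in the other direction through the LXR receptors, which switch on Abca1, Abcg1, Mylip and Srebf1. In blood progenitors, cholesterol export by ABCA1 and ABCG1 is known to restrain proliferation in response to growth factors.

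The regulatory sequences that link these genes are shown first. Srebf2 and Insig1, both lower in knockout, are themselves known SREBP targets, so the 250 bases before their RefSeq starts are printed (build GRCm38.p6, plus strand). In Srebf2, at chr15:82147019-82147268, capitals mark the letters tcacccca, which belong to sterol regulatory elements, and an NF-Y box. In Insig1, at chr5:28071162-28071411, capitals mark an E-box (cacgtg), a sequence that SREBPs can also bind, and an NF-Y box. The NF-Y box, ccaat, reads attgg on the printed strand in both.
Srebf2: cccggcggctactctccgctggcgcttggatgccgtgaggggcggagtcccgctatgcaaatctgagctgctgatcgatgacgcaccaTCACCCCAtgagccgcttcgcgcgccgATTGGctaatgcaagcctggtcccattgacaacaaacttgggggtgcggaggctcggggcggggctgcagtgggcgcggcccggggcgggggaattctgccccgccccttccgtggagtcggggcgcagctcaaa
Insig1: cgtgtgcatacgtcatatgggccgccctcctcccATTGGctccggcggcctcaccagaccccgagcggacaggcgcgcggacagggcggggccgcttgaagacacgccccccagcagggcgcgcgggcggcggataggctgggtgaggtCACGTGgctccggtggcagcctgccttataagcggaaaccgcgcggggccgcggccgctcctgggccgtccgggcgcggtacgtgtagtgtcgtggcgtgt

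Motifs were searched on both strands of 32851 RefSeq windows that run from 250 bases before to 50 after a start. The 12 member windows examined came from 7 of the 9 members, and no window of Stard4 or Abcg1 was examined. The 8 letters tcacccca begin 162 bases before the Srebf2 start and occur in 1.556% of all windows; they were searched after the 9-letter core tcacnccac, held by 1.242% of windows, had no match in a member window. The E-box lies 101 bases before the Insig1 start and 147 before the Abca1 start, is present in Scap as well, and occurs in 7.15% of windows. The NF-Y box occurs in 37.41% of windows and the Sp1 box gggcgg in 35.66%, so neither sets these promoters apart. The ATF4 element tgatgnaa, in 3.969% of windows, had matches in 2 windows of Insig2. The LXR direct repeat DR4 (2 copies of aggtca with a 4-base gap, matched exactly), in 0.01522% of windows, had none in a member window, which says only that these letters are not in these bases.

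A second link between the members is a microRNA. An intron of Srebf2 holds miR-33, which is known to lower ABCA1 and ABCG1 by pairing with their transcripts. The mature mouse miR-33-5p (RefSeq, chr15:82198127-82198147, plus strand) has its seed, bases 2 to 8, in capitals, and the stretches of the 3′ UTRs of Abca1 and Abcg1 below have the matching letters caatgca in capitals (GENCODE M21 transcripts, GRCm38).
miR-33-5p: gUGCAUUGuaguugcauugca
Abca1, chr4:53033783-53033812, minus strand: tattCAATGCAATGCActtCAATGCAacga
Abcg1, chr17:31114998-31115022, plus strand: aacgCAATGCAacgCAATGCAgaca

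Abca1 holds 3 matches, of which 2 overlap, between bases 135 and 156 of its 3156-base 3′ UTR. Abcg1 holds 2 matches between bases 717 and 733 of its 3703-base 3′ UTR. The other 7 members hold none, and 7.114% of 21028 protein-coding genes hold at least 1, with a median 3′ UTR of 960.5 bases. The Mir33 row of the count table was 0 in all 12 clones, and such counts do not measure the mature miRNA.

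Taz itself was counted at between 37.1 and 43.9 CPM, counts scaled to library size by TMM, in wildtype clones and between 2.21 and 4.08 CPM in knockout clones, so every clone matched its genotype label. Libraries held 21966954 to 27431544 counts in genes in wildtype and 18970252 to 23658158 in knockout, so depth moved with genotype, and its part in the results was not tested. Markers of granulocyte-monocyte progenitors summed to 14263 to 23439 CPM in wildtype and 13221 to 21217 CPM in knockout, with 0 of 10 passing the test (adjusted p under 0.05). The libraries of 2 clones stood apart. In wildtype clone 2D, 12 neutrophil markers summed to 1558 CPM, against 120.4 or less in the other wildtype clones and 15.9 to 147 in knockout. In knockout clone 3G, 8 fetal hepatocyte markers summed to 165.9 CPM, against 3.40 or less in every other clone. The 9 lymphoid markers summed to 34.6 to 88.0 CPM in wildtype and 6.68 to 30.7 CPM in knockout, without overlap, and 2 of the 7 tested passed the test, both lower. Monocyte and macrophage markers, of cells that can express much Abca1, summed to 35.8 to 80.7 CPM in wildtype and 38.7 to 87.8 CPM in knockout; 5 of 15 stayed under 1 CPM in every clone, and 0 of 7 tested passed. In such bulk samples, fewer cells of a type and less RNA per cell cannot be told apart.

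Of the 9 members, Srebf2, Insig1 and Stard4 fell in Taz knockout clones, and no member rose. Over all 11819 genes tested by edgeR's quasi-likelihood test with Benjamini-Hochberg adjustment, 938 (7.94%) were called at an adjusted p under 0.05, of which 466 (3.94%) were lower and 472 (3.99%) higher. The median log2 fold change of the members was -0.22, against -0.0066 over all genes tested. An unadjusted p under 0.05 was reached by 5 members: those 3, Srebf1 and Scap. Over all 11819 genes tested, 2806 reached it. Stard4 was the only member whose genotypes did not overlap in CPM, as was the case for 636 (5.38%) of all genes tested.

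**Figure D1:**
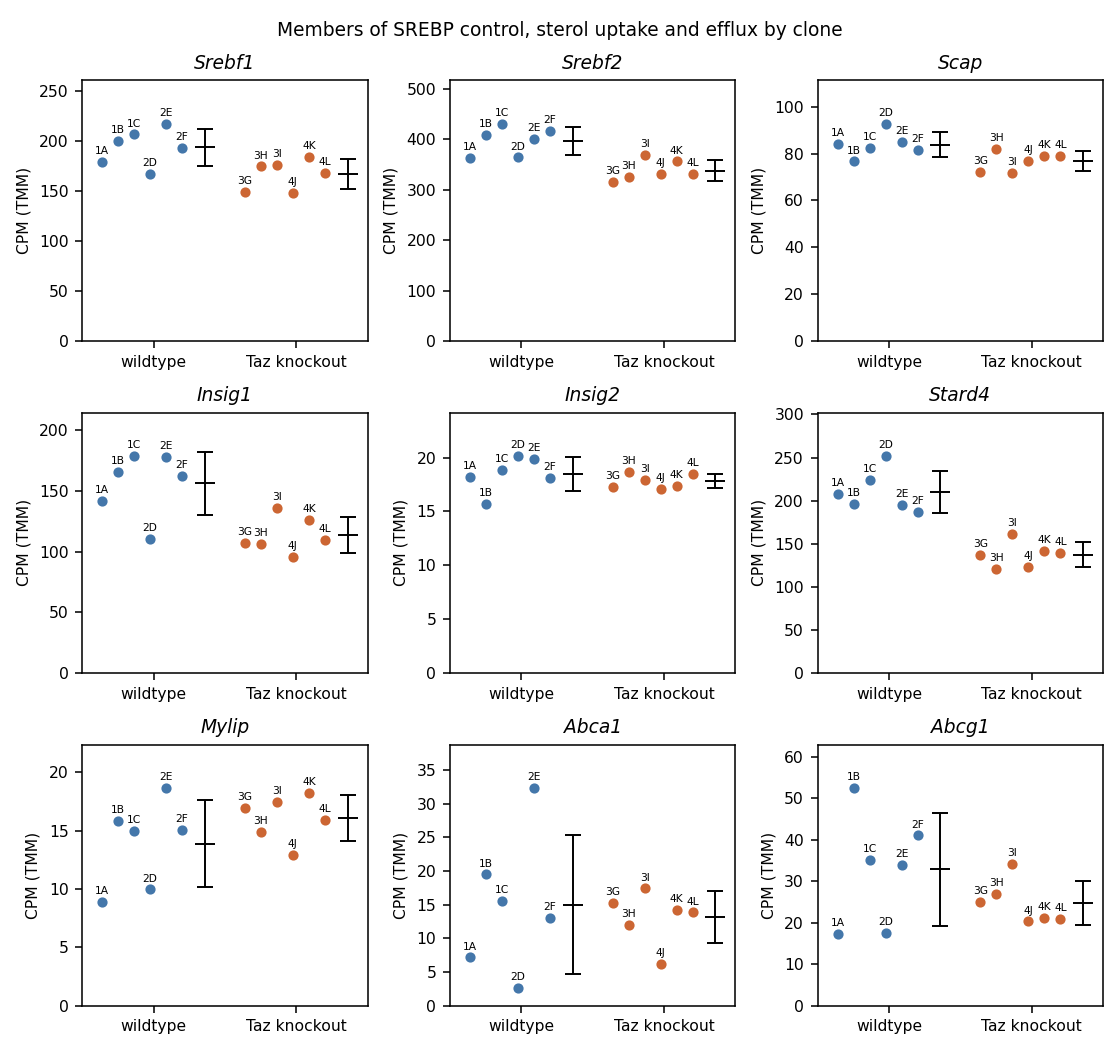
CPM (counts scaled to library size by TMM) of each member in each clone, on linear axes from 0; points are single clones with their names, and the black bar beside each group is the mean with 1 SD (n = 6). The 6 knockout clones of Stard4 lie at 162 CPM or below and the 6 wildtype clones at 187 CPM or above, whereas Abca1 spans 2.64 to 32.3 CPM within wildtype.

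Srebf2 encodes SREBP-2, the main activator of cholesterol genes (ENSMUSG00000022463, chromosome 15). Its level ran from 363 CPM (median 404, highest 430.3) in wildtype and from 315 CPM (median 331, highest 368) in knockout. Of the knockout clones, 5 were below every wildtype clone, and 3I, at 368 CPM, was just above the lowest wildtype clones 1A (363 CPM) and 2D (364 CPM). The means were 397 ± 27.8 CPM (SD, n = 6) and 338 ± 20.0 CPM (n = 6). Srebf2 fell by 0.23 on the log2 scale (SE 0.05, edgeR adjusted p = 0.0209), a decrease to 0.851 of wildtype. The call held under all 21 other settings, though barely in some (highest adjusted p 0.0497).

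Srebf1, which encodes both SREBP-1a and SREBP-1c (ENSMUSG00000020538, chromosome 11), ranged from 167 to 217 CPM in wildtype (median 196) and from 148 to 184 CPM in knockout (median 171). Only 3G and 4J lay below every wildtype clone. The log2 fold change was -0.22 (SE 0.07), close to that of Srebf2 in size, but its edgeR adjusted p of 0.0952 missed the threshold. DESeq2 gave an adjusted p of 0.0475, and edgeR without clone 2D gave 0.0396. Reads were counted without regard to strand, and Srebf1 shares exon sequence with Rai1 on the opposite strand. Rai1 was at 131 ± 11.9 CPM in wildtype and 149.7 ± 10.9 CPM in knockout (log2 fold change 0.20, SE 0.07, edgeR adjusted p = 0.0865). The part of Rai1 in the Srebf1 counts was not tested. The counts join all Srebf1 transcripts and say nothing of the balance of SREBP-1a and SREBP-1c.

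Scap, the escort of SREBP precursors (ENSMUSG00000032485, chromosome 9), varied little. Its level was 76.6 to 92.7 CPM in wildtype (median 83.2) and 71.7 to 82.1 CPM in knockout (median 77.9), and the ranges overlapped. The log2 fold change was -0.12 (SE 0.05, edgeR adjusted p = 0.148). Without 2D, the wildtype clone with the highest Scap, it was -0.09 (adjusted p = 0.229). An uncharacterised transcript on the opposite strand that overlaps a Scap exon, 5830462I19Rik, was at 0.332 CPM or less in every clone.

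The INSIG proteins retain SCAP and its cargo when sterols are high, and Insig1 is itself switched on by SREBPs. Insig1 (ENSMUSG00000045294, chromosome 5) ranged from 110.5 to 178 CPM in wildtype (median 164) and from 95.6 to 136 CPM in knockout (median 108). In wildtype, 5 clones were at 142 CPM or above and 2D alone was at 110.5 CPM. All 6 knockout clones lay below those 5 wildtype clones, and 4 of them lay below 2D too. Insig1 fell by 0.46 on the log2 scale (SE 0.12, edgeR adjusted p = 0.0371), from 156 ± 25.9 CPM to 113 ± 14.8 CPM (SD, n = 6 each).

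The Insig1 call was lost under 9 of the 21 other settings. With no filter on low counts the adjusted p was 0.0571. Leaving out any 1 of 1B, 1C, 2E, 2F, 3G, 3H, 4J or 4L gave an adjusted p between 0.0590 and 0.0823. With 1A, 2D, 3I or 4K left out it was 0.0499 or lower, and without both 2D and 3G the log2 fold change was -0.52 (adjusted p = 0.0145). Across all settings the log2 fold change stayed between -0.54 and -0.41.

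Insig2, which is not a typical SREBP target (ENSMUSG00000003721, chromosome 1), was at 15.7 to 20.1 CPM in wildtype (median 18.5) and 17.1 to 18.6 CPM in knockout (median 17.6). The knockout range lay inside the wildtype range. The log2 fold change was -0.05 (SE 0.06, edgeR adjusted p = 0.651). That Insig1 and Insig2 differ in their response was not tested.

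Stard4 is a soluble carrier that moves sterol between membranes and is known to be induced when sterols are low (ENSMUSG00000024378). Wildtype clones held 187 (2F), 195 (2E), 196 (1B), 208 (1A), 224 (1C) and 252 CPM (2D). In knockout the values were 121 (3H), 123 (4J), 138 (3G), 139 (4L), 142 (4K) and 162 CPM (3I). Every knockout clone lay below every wildtype clone, and 2D and 3I were the highest of their genotypes. Stard4 fell by 0.61 on the log2 scale (SE 0.09, edgeR adjusted p = 0.00170), to 0.654 of wildtype. It had the largest difference among the 3 called members, and the call held under all 21 other settings (highest adjusted p 0.0322). Without both 2D and 3G the log2 fold change was -0.55 (adjusted p = 0.00560).

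The 3 members known as LXR targets other than Srebf1 had no called difference. In wildtype they varied more between clones than the rest, with coefficients of variation of 26.8% (Mylip), 41.5% (Abcg1) and 69.0% (Abca1) against 6.32% to 16.6% for the other 6 members. Mylip encodes IDOL, a ubiquitin ligase that acts on lipoprotein receptors (ENSMUSG00000038175, chromosome 13). It was at 8.88 to 18.6 CPM in wildtype (median 15.0) and 12.9 to 18.3 CPM in knockout (median 16.5). Its log2 fold change of 0.21 (SE 0.17, edgeR adjusted p = 0.498) was the only positive one among the members.

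Abca1 loads cholesterol onto lipid-poor apolipoproteins (ENSMUSG00000015243, chromosome 4). Wildtype clones held 2.64 (2D), 7.16 (1A), 13.0 (2F), 15.6 (1C), 19.5 (1B) and 32.3 CPM (2E), and in knockout the values were 6.24 (4J), 12.0 (3H), 13.9 (4L), 14.2 (4K), 15.3 (3G) and 17.4 CPM (3I). The whole knockout range lay inside the wildtype range. The log2 fold change of -0.19 had an SE of 0.46 (edgeR adjusted p = 0.848). Its sign turned to 0.18 without clone 2E, and to 0.06 with limma voom.

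Abcg1 passes cholesterol to mature lipoprotein particles (ENSMUSG00000024030, chromosome 17). It was at 17.3 to 52.4 CPM in wildtype (median 34.5) and 20.3 to 34.2 CPM in knockout (median 23.1). Clones 1A and 2D, at 17.3 and 17.5 CPM, were below all knockout clones, and the other 4 wildtype clones were above all knockout clones except 3I. The log2 fold change was -0.41 (SE 0.26, edgeR adjusted p = 0.385). It was nearly as large as that of Insig1, with a larger SE, and was not called.

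**Figure D2:**
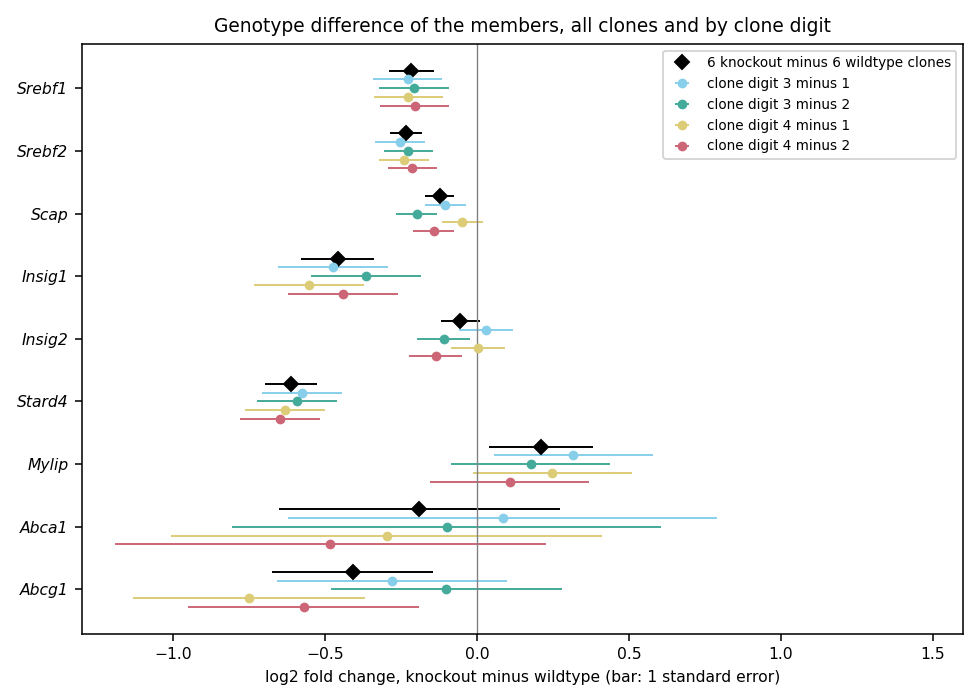
Log2 fold change of each member (x axis, knockout minus wildtype; bars are 1 standard error) for all clones together (black diamonds) and for each pair of clone-name digits (coloured points, 3 clones against 3). Srebf1, Srebf2, Scap, Insig1, Stard4 and Abcg1 lie left of 0 in all 4 pairs, while the bars of Abca1 are the widest.

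Split by the digit in the clone name, the clones gave 4 comparisons of 3 knockout with 3 wildtype clones. These share clones and are not independent, so a shared sign is in part built in, and the values are given side by side only. Stard4 had log2 fold changes of -0.58 (3 minus 1), -0.59 (3 minus 2), -0.63 (4 minus 1) and -0.65 (4 minus 2). For Srebf2 the values were -0.25, -0.23, -0.24 and -0.21 in the same order, and for Srebf1 they were -0.23, -0.21, -0.23 and -0.20. Insig1 gave -0.48, -0.37, -0.55 and -0.44. Mylip was above 0 in all 4, from 0.11 to 0.32. Insig2 ran from -0.14 to 0.03 and Abca1 from -0.48 to 0.08.

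With 3 clones a side, edgeR called 0 of the 9 members in any of the 4 comparisons, where 1.57%, 0.719%, 0.508% and 0.262% of all genes were called in the same order. In each of them 3 members had an unadjusted p under 0.05, and Stard4 had the smallest adjusted p, 0.0612 to 0.0849. The share of all genes under that unadjusted p was not counted in these comparisons. When each comparison was fitted on its own 6 clones, 0 members were called and 4, 2, 3 and 2 had an unadjusted p under 0.05. Within a genotype, digit 2 minus digit 1 and digit 4 minus digit 3 gave 0% of genes called and 0 of 9 members with an unadjusted p under 0.05. Fitted on their own 6 clones, these comparisons gave 0 members called. In that fit, Abcg1 in 4 minus 3 was the 1 member with an unadjusted p under 0.05 (log2 fold change -0.47, edgeR adjusted p = 1.00). Stard4 differed by 0.02 (log2) between digits 1 and 2 and by -0.06 between 3 and 4.

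Several members were low together in 3 clones, 1A, 2D and 4J, which are named here because Abca1 was lowest in them. Relative to the mean of its genotype on the log2 scale, Abca1 was at -0.69 in 1A, -2.10 in 2D and -1.0 in 4J, and at 1.47 in 2E. Mylip was low in the same 3 clones (-0.59, -0.43 and -0.31), as was Insig1 (-0.12, -0.48 and -0.24). Abcg1 was low in 1A (-0.81), 2D (-0.79) and 4J (-0.26), but also in 4K (-0.20) and 4L (-0.22). Srebf1 followed with smaller deviations of -0.11, -0.21 and -0.17, and was at -0.16 in 3G. Srebf2 was at -0.13 in 1A and -0.12 in 2D, but at -0.026 in 4J. In 2D, Stard4 and Scap had their highest wildtype level (0.27 and 0.15). In 1A they were at -0.0084 and 0.0089, and in 4J at -0.15 and -0.00047.

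Markers of other cell types also differed between these clones. Mast cell and basophil markers summed to 1474 CPM in 1A and 1139 CPM in 2D, the 2 lowest wildtype values, and to 4074 CPM in 2E, the highest. In 4J they summed to 3367 CPM, inside the knockout range of 2169.7 to 4962 CPM. Neutrophil markers were highest in 2D, as given above, while 4J, at 97.1 CPM, was not the highest of its genotype. The part of these markers in the clone differences was not tested.

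**Figure D3:**
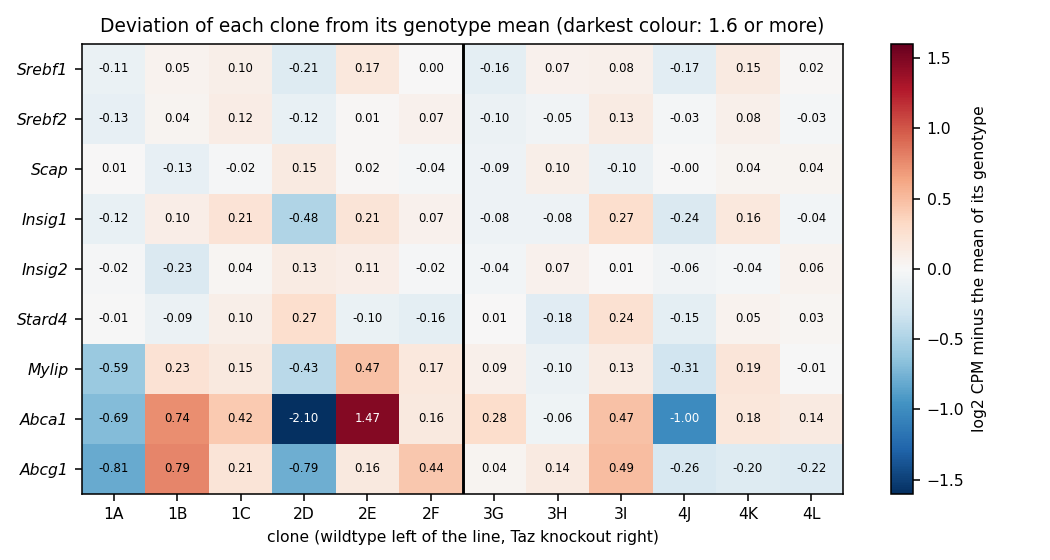
Deviation of each clone from the mean of its genotype in log2 CPM (colour and printed value), with the members in rows and the clones in columns; wildtype is left of the line and Taz knockout right of it. Blue cells line up for Insig1, Mylip, Abca1 and Abcg1 in 1A, 2D and 4J, with the lowest value, -2.10, for Abca1 in 2D. Abcg1 is also below its genotype mean in 4K and 4L.

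After the genotype means were taken off, the genes most like each member over the 12 clones were found by Pearson's r, given as a description with no test. For Srebf2 the first was Fads2, a fatty acid desaturase (r = 0.96), then Ldb1 (0.95) and Hyal2 (0.94). For Srebf1 they were Rap2c (0.97), Kat6a (0.94) and Psme2 (0.93), and for Insig1 they were Asb13 (0.97), Trp53bp1 (0.96) and Smarcc2 (0.95). Abca1 was matched by Dyrk1b (0.97), Ifit2 (0.97) and Fundc2 (0.96). Reep3, at 0.93, was among the 3 genes most like Abcg1. The values for Stard4 were lower, with Trmt10a at 0.89, Zglp1 at 0.86 and Elp4 at 0.86. Zglp1 had a mean of only 0.482 CPM. These are the highest values for each member among the 11819 genes tested, with predicted genes and the member itself left out. No chance level was computed.

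Whether members vary from clone to clone with the cholesterol synthesis genes was examined within each genotype. The measure was the mean log2 CPM of 21 synthesis genes, which ran from 6.20 to 6.42 in wildtype and from 5.72 to 5.89 in knockout. Over 9 members and 2 genotypes, 18 relations were computed by exact two-sided permutation of 720 orders, and 0 reached an unadjusted p under 0.05 (the smallest possible is 0.00278). The highest Pearson r was that of Srebf2 in knockout, 0.757 (exact permutation p = 0.075, adjusted 0.997), with a Spearman rho of 0.829 (p = 0.0583, adjusted 0.525). Without 3G and 3H, the clones farthest from the median, its r was 0.631. The same omission moved r in knockout from -0.0404 to 0.990 for Abca1 and from 0.496 to 0.923 for Stard4. It rose for the other members too, except Scap (-0.0030 to -0.293). These values rest on the few clones kept and were not tested. Stard4 had rho = 0.829 in wildtype (exact permutation p = 0.0583, adjusted 0.525) with r = 0.534, and r = 0.667 without 1C and 2E.

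Levels were compared between members as CPM per kilobase of merged exon sequence, which ignores which transcript is used. In wildtype the order was Srebf2 at 55.2 ± 3.87 (SD, n = 6), Insig1 at 50.4 ± 8.39, Stard4 at 37.7 ± 4.29 and Srebf1 at 34.4 ± 3.26. Next came Scap at 11.2 ± 0.711, then Insig2 at 5.32 ± 0.459, Abcg1 at 4.50 ± 1.87 and Mylip at 4.30 ± 1.15, and last Abca1 at 1.45 ± 1.00 CPM per kilobase. The clone ranges of Srebf2 and Insig1 overlapped, as did those of Stard4 and Srebf1, and those of Insig2, Abcg1 and Mylip. The highest Abca1 clone (3.12) lay above the lowest clones of Mylip (2.75) and Abcg1 (2.37). Scap stood apart from its neighbours on both sides.

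In knockout, Srebf2 was at 47.0 ± 2.78 and Insig1 at 36.7 ± 4.77 CPM per kilobase, and their ranges touched only at about 43.9. Srebf1, at 29.6 ± 2.65, was ahead of Stard4, at 24.6 ± 2.65, with overlapping ranges. Scap followed at 10.3 ± 0.557, Insig2 at 5.12 ± 0.191, Mylip at 4.98 ± 0.604, Abcg1 at 3.39 ± 0.733 and Abca1 at 1.27 ± 0.370 CPM per kilobase. With the length of the longest transcript in place of the merged exons, Srebf1 (45.0 CPM per kilobase) was ahead of Stard4 (41.3) in wildtype too.

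Other genes of the same pathways were read from the same fit, as lists grouped by function. The lists were chosen with earlier results of these data known. Their called shares are therefore a description and not a test. Of 22 cholesterol synthesis genes named, 21 were tested, and Hmgcs1 was not analysed here. Among those 21, 18 fell and 0 rose, with a median log2 fold change of -0.54. The called share was 85.7%, against 7.94% of all genes tested. Sqle, which makes squalene epoxide, fell from 229 ± 15.8 CPM to 174 ± 9.52 CPM (log2 fold change -0.40, SE 0.05, edgeR adjusted p = 0.00115). Mvd, which makes isopentenyl diphosphate, had the smallest adjusted p of the list (log2 fold change -0.89, adjusted p = 0.00011). Stard4 at -0.61 and Insig1 at -0.46 lay within the range of this list, -0.95 to 0.11, and Srebf2 at -0.23 lay nearer its upper end.

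**Figure D4:**
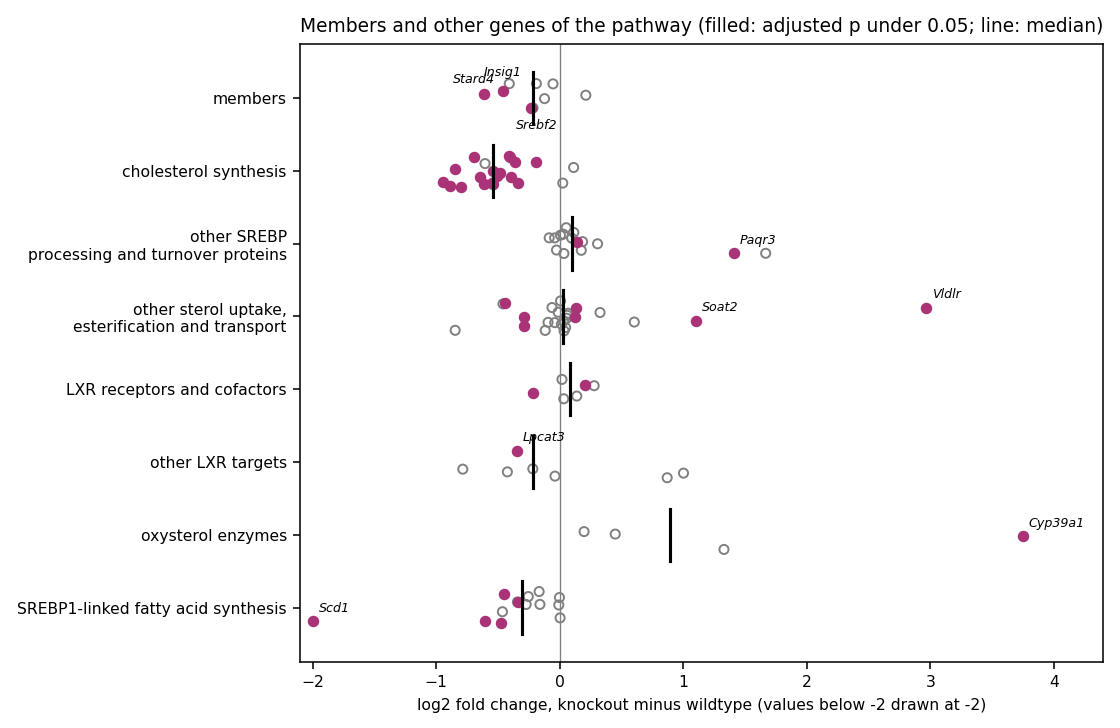
Log2 fold change (x axis, knockout minus wildtype) of the members and of each list of pathway genes; filled points passed the edgeR test at an adjusted p under 0.05, open points did not, black lines are medians and vertical scatter has no meaning. Cholesterol synthesis genes lie mostly left of 0 (median -0.54), other SREBP processing genes sit near 0 (median 0.10), and Scd1, at -4.26, is drawn at the edge.

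Of 15 other genes that cut and turn over SREBPs and SCAP, 2 rose and 0 fell (median log2 fold change 0.10), a called share of 13.3% against 7.94% of all genes tested. Aup1, a partner of the degradation machinery of the endoplasmic reticulum, rose from 112 ± 2.06 CPM to 123 ± 4.06 CPM (log2 fold change 0.14, edgeR adjusted p = 0.0123). Paqr3, which tethers SCAP and SREBP to the Golgi, rose from 1.06 ± 0.354 CPM to 2.82 ± 0.834 CPM (log2 fold change 1.41, adjusted p = 0.0132). Both calls were lost when the clones of a digit were summed (adjusted p = 0.107 and 0.0717). The genes of the 2 proteases that release SREBPs, Mbtps1 and Mbtps2, had log2 fold changes of 0.17 (adjusted p = 0.148) and 0.05 (adjusted p = 0.548). Erlin1, which binds the SREBP complex, was at 0.18 (adjusted p = 0.0856).

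Among 24 tested genes of sterol uptake, esterification and transport, 4 rose and 3 fell (median log2 fold change 0.02). The called share was 29.2%, against 7.94% of all genes tested. Vldlr, a receptor for triglyceride-rich lipoproteins, had the largest rise. Its lowest, median and highest wildtype clones were at 3.01, 7.12 and 20.6 CPM, and its knockout clones held between 45.6 (3G) and 87.4 CPM (4K). The genotypes did not overlap, and the log2 fold change was 2.97 (SE 0.39, edgeR adjusted p = 0.00125).

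Soat2, which esterifies cholesterol for storage, rose from 6.10 ± 1.75 CPM to 13.1 ± 3.13 CPM (log2 fold change 1.10, SE 0.21, edgeR adjusted p = 0.0107). Soat1, the form common to most cells, spread from 25.5 to 90.3 CPM in knockout, and its log2 fold change was -0.04 (SE 0.30, adjusted p = 0.955). Tmem97, a sterol-regulated membrane protein, fell by 0.29 on the log2 scale (adjusted p = 0.0169). Scarb1, a receptor for high-density lipoprotein, fell by 0.45 (adjusted p = 0.0330). Without both 2D and 3G neither was called (adjusted p = 0.0517 for Tmem97 and 0.104 for Scarb1), nor with clones summed by digit (0.0717 and 0.0720). Scarb1 also lost its call without any 1 of 1A, 1C, 2D, 3G, 3I, 4J or 4K (0.0538 to 0.0734). Osbpl2, of the oxysterol-binding protein family, rose by a small amount (log2 fold change 0.13, adjusted p = 0.0212), and was called in 16 of the 21 other settings, not without 1A, 1B or 3I. The count of 7 fell to 4 when 1A, 1B or 3G was left out, and to 4 without both 2D and 3G. Npc1, which exports cholesterol from lysosomes, was at 0.05 on the log2 scale (adjusted p = 0.849).

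The receptors that control Abca1, Abcg1 and Mylip had no called difference. Nr1h2, which encodes LXR-beta, was at 73.9 ± 4.48 CPM in wildtype and 74.8 ± 3.62 CPM in knockout (log2 fold change 0.02, SE 0.05, edgeR adjusted p = 0.859). Nr1h3, which encodes LXR-alpha, had at most 9 counts in a clone and was not tested. Of 6 receptors and cofactors tested, Ncor1, a corepressor that silences LXR targets, rose by a log2 fold change of 0.20 (adjusted p = 0.00525), and Med14, a Mediator subunit, fell by 0.22 (adjusted p = 0.0464). The called share of this list was 33.3%, against 7.94% of all genes tested. Med14 was called in 9 of the 21 other settings. Leaving out any 1 of 1A, 1B, 1C, 2E, 3G, 3H, 4J, 4K or 4L left 1 called gene, as did leaving out 2D with 3G.

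Of 7 other LXR targets tested among 14 named, 1 fell and 0 rose, a called share of 14.3% against 7.94% of all genes tested. That gene was Lpcat3, which inserts polyunsaturated chains into phospholipids, at 137 ± 8.51 CPM in wildtype and 108 ± 4.98 CPM in knockout (log2 fold change -0.35, SE 0.05, edgeR adjusted p = 0.00134). All 6 knockout clones of Lpcat3 were below all wildtype clones. Apoe was at 5.66 ± 0.506 CPM in wildtype and at 4.97 to 6.63 CPM in 5 knockout clones, but at 33.4 CPM in 3G, the clone with hepatocyte markers (log2 fold change 0.87, adjusted p = 0.287). Abca7, a transporter related to Abca1, was at -0.04 on the log2 scale (adjusted p = 0.738).

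Among 4 tested enzymes that make or convert oxysterols, the ligands of LXR, 1 was called (25%, against 7.94% of all genes tested). Cyp39a1 rose (log2 fold change 3.75, SE 0.96, edgeR adjusted p = 0.0351). It held 3.27 to 13.8 CPM in 5 knockout clones but 0.0937 CPM in 4K, against 0.0415 to 1.21 CPM in wildtype. Cyp39a1 was called in only 8 of the 21 other settings (highest adjusted p 0.196). It was not called with no filter on low counts, nor by limma voom with or without the digit as a block. The call was lost without any 1 of 1A, 1B, 1C, 2E, 2F, 3G, 3H, 3I or 4J (adjusted p between 0.0543 and 0.0698), and without both 2D and 3G (0.0558). The values of 1A (0.0766 CPM), 2F (0.0415 CPM) and 4K were under the limit that a count of 0 allows, 3 counts, which corresponded to 0.109 to 0.158 CPM across the libraries and covers counting error only.

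SREBP-1 is best known for fatty acid synthesis, and of 14 such genes tested 5 fell and 0 rose (median log2 fold change -0.31). The called share was 35.7%, against 7.94% of all genes tested. Aacs, which activates ketone bodies for lipid synthesis, fell by 0.45 (SE 0.05, edgeR adjusted p = 0.00053), and Acly, which makes cytosolic acetyl-CoA, fell by 0.34 (adjusted p = 0.00207). The desaturase genes Scd2 and Fads2 fell by 0.61 (adjusted p = 0.00669) and 0.47 (adjusted p = 0.0210). The fifth, Scd1, had a log2 fold change of -4.26 with an SE of 1.16 (adjusted p = 0.0441) and was called in only 6 of the 21 other settings. Fasn, at -0.17 (SE 0.07, adjusted p = 0.165), and Acaca, at -0.16 (SE 0.06, adjusted p = 0.145), the synthase and carboxylase at the core of the pathway, had values close to that of Srebf1 and likewise missed the threshold.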

How the data were processed

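Per the submitters' processing notes, reads were handled with STAR, HTSeq and edgeR on genome build mm9; versions and the annotation release are not given in the sources used here. Each clone has 1 file of raw counts per Ensembl gene as deposited by the authors, and the file names mark them as not stranded. Rows that name no gene were left out: 43.6% of records on average were not uniquely aligned, 3.55% lay outside genes and 1.59% were ambiguous. Symbols were matched for 32860 of 37583 identifiers, with lengths and overlaps from GENCODE M21 (GRCm38); coordinates and sequences are on GRCm38, not on the build of the counts.

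Counts were tested with edgeR 4.0.16 in R 4.3.3 (TMM, filterByExpr by genotype, quasi-likelihood F-test, Benjamini-Hochberg adjustment over 11819 genes, threshold 0.05). The standard error was the absolute log2 fold change over the square root of F. Clones of different digits were compared in a model with 4 groups. Log2 CPM used a prior count of 2. The test was tried on simulated data.

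Alternatives were DESeq2 1.42.0, RLE and upper-quartile scaling, 2 other filters, limma 3.58.1 voom with and without the digit as a block, clones summed by digit, and each clone left out. Leaving out 2D and 3G together was added after seeing the data. Members and lists were chosen with earlier results of these data known. Named genes were the members, Taz, up to 4 called genes of smallest adjusted p per list, a fixed set of sterol and lipid genes, and the 3 genes most like 6 of the members. Some genes that the rule names are not reported here.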

Additional observations from a re-analysis of the deposited data

Results flagged for a closer look

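No member had a clone that stood apart by Dixon's test (6 clones a group), which flags about 1 in 20 groups by chance. Among other genes, the highest or lowest clone stood apart from its 5 companions in 6 cases, and 5 of them were in clone 3G or 2D. Vldlr in 3G was the lowest knockout value, at 45.6 CPM, and Erlin1 in 3G was the highest, at 127 CPM. Apoe in 3G was at 33.4 CPM and Alb, the hepatocyte albumin gene, at 123 CPM. Alb is 1 of the hepatocyte markers that set 3G apart, so its flag in 3G was built in. Alb in wildtype clone 2D was at 0.0433 CPM, which is a single read, with 0 in the other wildtype clones. Paqr3 in 4K was the lowest knockout value, at 1.17 CPM.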

How the results depend on the processing

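Of the members, Srebf2 and Stard4 were called under all 21 other settings, Insig1 under 12 and Srebf1 under 3, and the other 5 under none. The count of called members stayed between 2 and 4. Over all genes it was 1631 with DESeq2, 551 with no filter, 2296 with the digit as a block in voom, 274 with clones summed by digit, and 570 to 1031 with 1 clone left out (602 without 3G, 608 without 1B, 570 without 3I). Voom without the block called 925 genes. The correlation within a digit was estimated at -0.169, so the block made no allowance for clones of a digit being alike. With it the SE of Srebf1 was 0.056, against 0.074 in voom alone. The block setting was among the 3 that called Srebf1. Counts of lists differed by more than 1.5 times as follows. With DESeq2, SREBP processing had 5, oxysterol enzymes 2 and fatty acid synthesis 8. With summed clones, edgeR gave 0 for SREBP processing (7 with an unadjusted p under 0.05) and 0 for LXR receptors (3 with an unadjusted p under 0.05), against 5 and 2 by DESeq2 on single clones, and 4 for uptake. Without both 2D and 3G, uptake had 4, LXR receptors 1 and oxysterol enzymes 0 (2 with an unadjusted p under 0.05). With 1 clone left out, uptake ran from 4 to 7, LXR receptors from 1 to 2 and oxysterol enzymes from 0 to 2. Among the log2 fold changes of named genes, signs changed for 4 genes, none of them called. Abca1 was at 0.064 with voom, 0.074 with the block, and -0.41 to 0.18 with 1 clone left out (0.18 without 2E). Npc1 was at -0.024 to 0.10 with 1 clone left out (-0.024 without 2D, -0.022 without 4K) and at -0.027 without both 2D and 3G. Soat1 was at -0.23 to 0.10 with 1 clone left out (above 0 without 1A, 2D, 3I or 4K) and at 0.040 without both 2D and 3G. Nr1h2 was at -0.0094 without 1B and up to 0.041 without 2E. The relation of Abca1 to cholesterol synthesis in knockout went from r = -0.0404 to 0.0016 without TMM. The causes were not tested. No paired analysis was possible because the genotypes share no clone digit. Nr1h3 had at most 9 counts in a clone and was not tested.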
